A study of Homo sapiens with 4 samples.

Results

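The genes described here are 42 human interferon-stimulated and cytosolic nucleic acid sensing genes, taken by symbol from a table of 61906 gene identifiers, and all 42 were found in it. Their expression was read in the polyadenylated RNA of HepG2, a hepatocellular carcinoma line labelled wild type, with 2 libraries of cells exposed to 20 µM pyridostatin (PDS) for 24 h and 2 libraries of mock-treated cells. PDS is a ligand of guanine quadruplexes (G4), folds that guanine-rich DNA or RNA can adopt, and such ligands have been linked to micronuclei, whose DNA cytosolic sensors can meet. The comparison therefore asks how the sensing and interferon genes stood after PDS treatment. The series text calls the replicates biological, but no label ties them to separate cultures, and the p-values speak only of the spread among these 4 libraries, which may be technical.

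Cells detect misplaced DNA through CGAS, an enzyme that makes a cyclic dinucleotide on contact with DNA, and STING1, the adaptor that binds this dinucleotide. Misplaced RNA is detected by RIGI and IFIH1, which signal through the mitochondrial adaptor MAVS. Both routes activate the kinase TBK1 and the transcription factor IRF3, which switch on type I interferon genes. Secreted interferon binds a receptor made of IFNAR1 and IFNAR2, and a transcription factor complex that holds STAT2 and IRF9 then switches on the interferon-stimulated genes through a promoter element called the interferon-stimulated response element.

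Expression was deposited as TPM, which corrects for gene length and sums to the same total in every library. The read number behind each value could be recovered from TPM and exon length, and came to 15573166 and 19647907 in the PDS libraries, against 39217670 and 30408397 in the mock libraries. Genes of the mitochondrial genome took 36.5% and 36.4% of all TPM in the PDS libraries and 15.3% and 14.5% in the mock libraries, and by TPM as deposited the median tested gene had a log2 fold change of -0.55. Each library was therefore scaled to the median gene, and higher and lower below are relative to that gene unless TPM as deposited is named. Of the 8 hepatocyte markers, 7 were called higher after PDS and 1 (APOB, log2 fold change -0.55) lower, and their median on scaled TPM was 0.56 (log2 fold change). As deposited they summed to 41569 and 40271 TPM after PDS and 45868 and 49278 TPM in mock cells, with a median of -0.09. Their part in the calls below was not tested. The 8 leukocyte markers summed to 6480 and 7296 TPM after PDS and 5971 and 6067 TPM in mock cells, of which LYZ took 5876 to 7206, CD74 86.7 to 96.3 and CD14 2.52 to 4.56. LYZ and CD74 were called higher (log2 fold changes 0.84 and 0.55), CD14 did not pass, and the other 5 (PTPRC, CD3E, CD68, MS4A1 and NKG7) were below 1 TPM in every library. Fibroblast markers summed as deposited to 12.4 and 14.7 TPM after PDS and 20.7 and 20.1 in mock cells. Endothelial markers summed to 2.94 and 2.81 against 4.17 and 4.01. On scaled TPM the fibroblast sums were 15.3 and 18.6 after PDS against 16.8 and 15.8, and the endothelial sums 3.64 and 3.54 against 3.38 and 3.15. PDGFRB took 11.6 to 20.2 TPM of the fibroblast sums as deposited and did not pass on scaled TPM (log2 fold change 0.02). PECAM1 and CDH5 did not pass either (0.27 and -0.54). In bulk RNA, fewer cells that express a gene and less of its RNA per cell cannot be told apart.

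The interferon-stimulated genes did not move in 1 direction after PDS. Of the 42 genes, 27 reached a mean of 1 TPM and were tested with limma, 7 rose, 4 fell and 16 did not pass the adjusted p of 0.05. Those that rose were IFI6, ISG15, IFITM2, ISG20, IFITM3, BST2 and STING1, and those that fell were STAT2, SAMHD1, USP18 and MAVS. Called genes were thus 40.7% of the tested ones, against 29.2% of all 14686 genes tested, with 25.9% higher against 16.2% and 14.8% lower against 13.0%. The median log2 fold change of the 27 genes was -0.0044, against -9.3e-05 over all genes tested.

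Scaling decided much of this picture. By TPM as deposited, IFI6 alone of the 27 was higher (2.58% of all genes were) and 16 were lower (71.8% of all genes), BST2 among them, and the median of the 27 lay at -0.55. Libraries of the groups did not overlap in scaled TPM for 17 of the 27 genes, 10 with both PDS libraries above both mock libraries and 7 with both below, a share set beside 70.8% of all genes tested. With 2 libraries in each group, the smallest two-sided p of an exact permutation test is 0.333, and the calls therefore rest on the spread that limma shares across genes. With a library left out, 1 of the 27 genes (ISG15) passed without mock 1, 0 without mock 2 (11 at an unadjusted limma p under 0.05), 3 without PDS 1 (ISG15, IFI6 and BST2) and 4 without PDS 2 (these 3 and STAT2). Over the whole table, 178 genes passed without mock 1 and 0 without mock 2, so these counts say little of the 27 genes themselves. The log2 fold changes of the 11 called genes kept their sign in all 4 of these fits. For all 11 the groups did not overlap, so leaving 1 library out could hardly turn a sign, and this says little of stability. The log2 fold change of ISG20 moved by over 1.5 times, to 0.37 without mock 2.

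**Figure D1:**
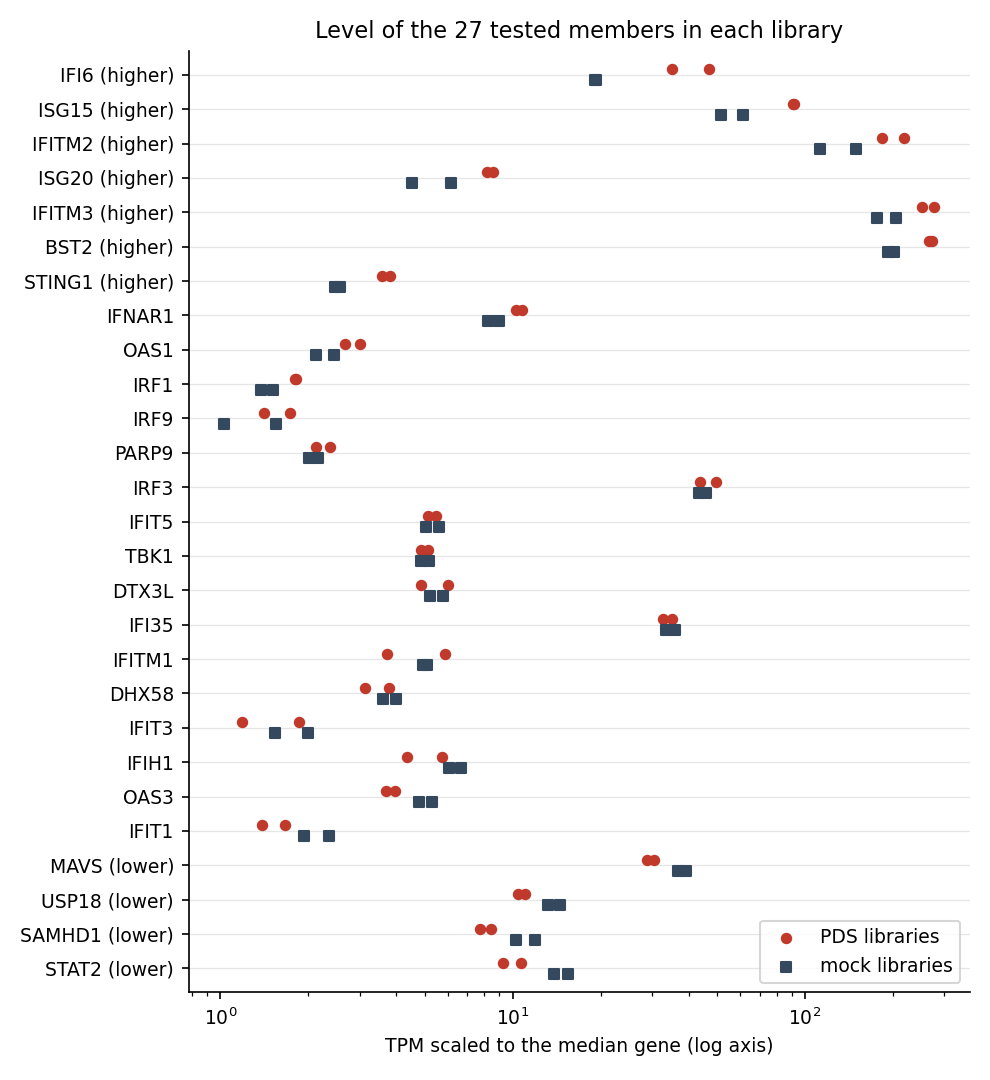
TPM scaled to the median gene (log axis) of the 27 tested genes in each PDS library (circles) and each mock library (squares), ordered by fold change, with those past the adjusted p of 0.05 marked higher or lower. ISG15 lay at 91.9 and 91.2 in the PDS libraries against 61.3 and 51.8 in the mock libraries, and STAT2 at 9.29 and 10.7 against 15.5 and 13.8.

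The promoters are shown next because the response element is what the interferon-stimulated genes are known to share. RefSeq windows from 250 bases before to 50 bases after an annotated start (GRCh38.p14) were found for 30 of the 42 genes. They were searched on both strands for the core of the element, GAAA, any 2 bases, GAAA, and for a G4 motif of 4 runs of 3 or more G with loops of 1 to 7 bases. Matches of the 2 patterns did not overlap each other in these windows. The core was present for 18 of the 30 genes (60.0%), against 4.38% of 27305 genes with such windows. The 5 genes that rose and had a window all held it, and their windows read as follows, with the GAAA blocks in capitals.
ISG15, chr1:1013372-1013405, plus strand: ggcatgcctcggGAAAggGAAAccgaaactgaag
IFI6, chr1:27672286-27672319, minus strand: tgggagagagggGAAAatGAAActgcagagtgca
IFITM3, chr11:320874-320907, minus strand: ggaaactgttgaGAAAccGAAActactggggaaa
ISG20, chr15:88638935-88638968, plus strand: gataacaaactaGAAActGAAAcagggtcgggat
BST2, chr19:17405739-17405772, minus strand: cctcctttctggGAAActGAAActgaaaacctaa
These 5 are printed on the strand of their gene, and their blocks lay between 130 and 26 bases upstream of the start.

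The same core stood in front of genes that did not pass the test, of which 4 are shown for comparison, again with the GAAA blocks in capitals.
IFIT1, chr10:89392495-89392528, minus strand: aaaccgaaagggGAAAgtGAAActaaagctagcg
IFIT3, chr10:89332466-89332499, minus strand: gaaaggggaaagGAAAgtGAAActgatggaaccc
IFIH1, chr2:162318684-162318717, minus strand: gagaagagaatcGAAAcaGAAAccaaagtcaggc
OAS3, chr12:112938450-112938483, plus strand: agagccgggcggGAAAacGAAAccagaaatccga
IFIT1 and IFIT3 lie on the plus strand, so their element is read from the opposite strand. The 13 tested genes with the core had a median log2 fold change of -0.0044, with 5 higher and 0 lower. The 9 tested genes without it had a median of -0.01, with 0 higher and 3 lower (STAT2, SAMHD1 and MAVS). Of all genes tested, 16.2% were higher and 13.0% lower. The called genes STING1, IFITM2 and USP18 had no window and are in neither count. STAT2, SAMHD1 and MAVS have exon lengths of 9310, 10835 and 11771 bases, and fold change went with exon length, as given below. These counts changed with the setting. By TPM as deposited IFI6 alone was higher (2.58% of all genes were). BST2, DTX3L, IFIH1, IFIT1, IFIT5, IFITM1 and OAS3, with the core, were then lower (71.8% of all genes were). So were IFI35, IFNAR1, MAVS, SAMHD1, STAT2 and TBK1, without it. With the exon length trend removed the 5 with the core stayed higher. Of those without it IFNAR1 was then higher and only STAT2 lower. Whether the core goes with direction was not tested. A match is a description of letters in this window and not of factor binding, and a window with no match says nothing of elements elsewhere.

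The G4 motif, the kind of sequence that PDS binds when folded, was present for 8 of the 30 genes (26.7%), against 27.9% of the 27305 genes. It is shown for ISG20, which rose, and MAVS, which fell, with the G runs in capitals.
ISG20, chr15:88638775-88638808, plus strand: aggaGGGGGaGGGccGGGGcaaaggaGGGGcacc
MAVS, chr20:3846841-3846870, plus strand: ctgcGGGaaGGGtcctGGGccccGGGcggc
The motif of ISG20 began 237 bases upstream of the start, while that of MAVS lay 11 to 32 bases downstream of it. Median log2 fold changes were 0.14 for the 6 tested genes with the motif and -0.02 for the 16 without it. With the motif 2 were higher (ISG15 and ISG20) and 1 lower (MAVS), and without it 3 were higher and 2 lower. Of all genes tested, 16.2% were higher and 13.0% lower.

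**Figure D2:**
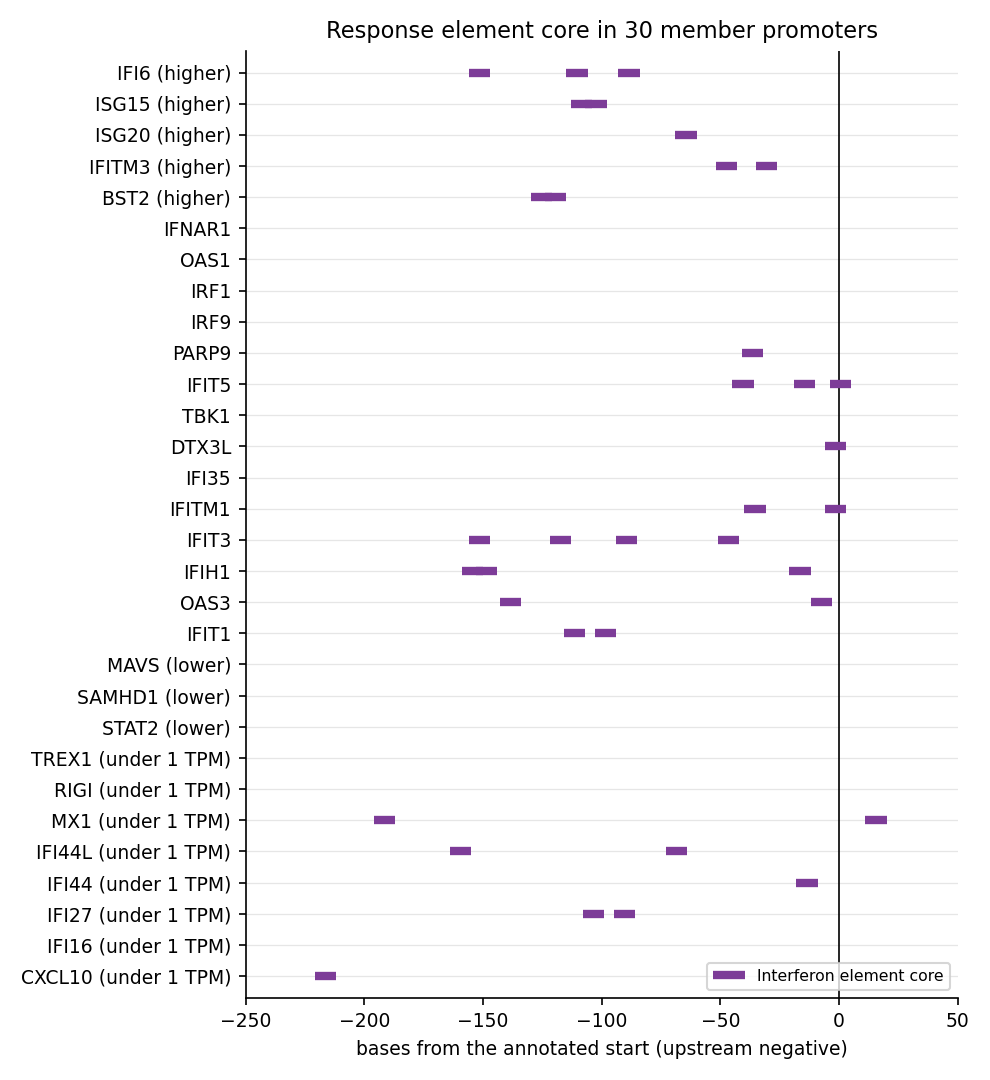
Positions of the response element core (purple) in bases from the annotated start in the windows of 30 genes, ordered by fold change with the genes under 1 TPM below; genes with several starts show all their matches. IFI6, IFIT5 and IFIH1 each hold cores at 3 positions, partly overlapping in IFIH1 (log2 fold changes 1.04, -0.0044 and -0.29). IFIT3 (-0.14) holds several over its annotated starts, and the rows of STAT2 and SAMHD1 are empty.

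Among the DNA sensing genes, the sensor itself was nearly unread while its adaptor was measurable. CGAS (chromosome 6, 73413515 to 73452297) had 3 and 0 reads in the PDS libraries and 3 and 2 reads in the mock libraries, a depth at which no difference was detectable (ratio per scaled depth 1.43, 95% exact interval for counting error only, 0.221 to 7.33). STING1 (chromosome 5, 139475533 to 139482935) held 3.80 and 3.57 scaled TPM after PDS, against 2.47 and 2.56 in mock cells. Both PDS libraries thus lay above both mock libraries, and STING1 rose (log2 fold change 0.41 ± 0.104, SE, limma adjusted p = 0.0408). It rested on 91 and 105 reads after PDS and 175 and 143 in mock cells, and by TPM as deposited it was not higher (log2 fold change -0.07, limma adjusted p = 0.592).

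The kinase and the transcription factor that act after STING1 did not pass the test. TBK1 (chromosome 12, 64452090 to 64502114) held 5.12 and 4.86 scaled TPM after PDS and 4.84 and 5.19 in mock cells (log2 fold change -0.01 ± 0.0872, SE, limma adjusted p = 0.961). IRF3 (chromosome 19, 49659569 to 49665875) held 49.6 and 43.8 scaled TPM after PDS and 45.8 and 43.3 in mock cells (log2 fold change 0.07 ± 0.0792, SE, limma adjusted p = 0.564). For both genes the groups overlapped. Of the IRF3 exon bases, 19.3% are shared with BCL2L12 on the opposite strand, and the strand setting of the counting was not given in the sources used here.

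Among the remaining DNA sensing genes, SAMHD1, a hydrolase of deoxynucleotide triphosphates that restrains DNA sensing, fell. SAMHD1 (chromosome 20, 36890229 to 36951893) held 8.44 and 7.73 scaled TPM after PDS, against 10.3 and 11.9 in mock cells (log2 fold change -0.41 ± 0.0960, SE, limma adjusted p = 0.0332), with no overlap. IFI16, a DNA-binding protein of the nucleus and cytosol, had 7 and 2 reads after PDS and 6 and 2 in mock cells. TREX1, the exonuclease that removes cytosolic DNA, was listed at 0 in all 4 libraries, and all of its exon bases (100%) overlap ATRIP on the same strand, so no level of its own can be read here. In all 10 of the 42 genes share over 10% of their exon bases with another gene on either strand, among them RIGI (43.2%), IFITM1 (31.6%) and IRF9 (27.2%), and how such reads were assigned was not stated.

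On the RNA side, the adaptor MAVS fell and none of the sensors passed. MAVS (chromosome 20, 3846799 to 3876123) held 30.5 and 28.9 scaled TPM after PDS, against 36.7 and 39.3 in mock cells (log2 fold change -0.34 ± 0.0648, SE, limma adjusted p = 0.0210). Its groups did not overlap, and it rested on 1794 and 2086 reads after PDS and 6370 and 5386 in mock cells. IFIH1, which senses long double-stranded RNA, held 5.75 and 4.34 scaled TPM after PDS and 6.05 and 6.65 in mock cells (log2 fold change -0.29 ± 0.136, SE, limma adjusted p = 0.169). DHX58, a helicase that tunes the RNA sensors, held 3.77 and 3.12 scaled TPM after PDS and 4.0 and 3.59 in mock cells (log2 fold change -0.11, limma adjusted p = 0.518). RIGI, the sensor of RNA with an uncapped end, stayed under the filter with 15 and 9 reads after PDS and 31 and 33 in mock cells.

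The interferon receptor was read mainly through its IFNAR1 chain. IFNAR1 (chromosome 21, 33324387 to 33359864) held 10.8 and 10.3 scaled TPM after PDS, against 8.24 and 9.0 in mock cells. It did not pass in spite of groups that did not overlap (log2 fold change 0.26 ± 0.0767, SE, limma adjusted p = 0.0592). Quantile normalization, a minimum of 5 TPM and voom weights on the recovered reads called it higher (limma adjusted p = 0.0480, 0.0439 and 0.00631). A pseudocount of 0.1, no filter and a replicate block did not. By TPM as deposited IFNAR1 was called lower (log2 fold change -0.32, limma adjusted p = 0.0206). IFNAR2 (chromosome 21, 33205282 to 33265675) had 34 and 38 reads after PDS and 113 and 80 in mock cells, or 0.491 and 0.448 scaled TPM against 0.552 and 0.495. This was a ratio of 0.886 with a counting interval of 0.667 to 1.17. IFNAR2 shares 27.7% of its exon bases with other genes, among them the read-through gene IFNAR2-IL10RB.

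Of the transcription factors that answer the receptor, STAT2 fell furthest of all 27 genes. STAT2 (chromosome 12, 56341597 to 56360203) held 9.29 and 10.7 scaled TPM after PDS, against 15.5 and 13.8 in mock cells (log2 fold change -0.51 ± 0.0994, SE, limma adjusted p = 0.0225). Both PDS libraries lay below both mock libraries, and by TPM as deposited STAT2 was at 7.49 and 8.50 after PDS and 19.2 and 17.5 in mock cells (log2 fold change -1.11). IRF9 (chromosome 14, 24161234 to 24168043), its DNA-binding partner, held 1.73 and 1.41 scaled TPM after PDS and 1.55 and 1.03 in mock cells, with overlapping groups (log2 fold change 0.17 ± 0.190, SE, limma adjusted p = 0.526). IRF1, a factor induced by several cytokines, held 1.80 and 1.81 scaled TPM after PDS and 1.38 and 1.52 in mock cells (log2 fold change 0.20, limma adjusted p = 0.346). IRF7, which amplifies interferon production, had 3 and 1 reads after PDS and 4 and 2 in mock cells.

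The ubiquitin-like modifier ISG15 and the protease that removes it, USP18, moved in opposite directions. ISG15 (chromosome 1, 1001138 to 1014540) held 91.9 and 91.2 scaled TPM after PDS, against 61.3 and 51.8 in mock cells (log2 fold change 0.69 ± 0.0906, SE, limma adjusted p = 0.0102). USP18 (chromosome 22, 18150118 to 18177397), which also damps receptor signalling, held 11.0 and 10.4 scaled TPM after PDS, against 13.2 and 14.5 in mock cells (log2 fold change -0.35 ± 0.0766, SE, limma adjusted p = 0.0297). Neither pair of groups overlapped. By TPM as deposited ISG15 was at 74.1 and 72.3 after PDS and 75.6 and 65.9 in mock cells (log2 fold change 0.05, limma adjusted p = 0.587), while USP18 was at 8.87 and 8.25 against 16.3 and 18.5 (log2 fold change -0.94). PARP9 and DTX3L, which form a complex with ADP-ribosyl transferase and ubiquitin ligase activity and are divergent neighbours on chromosome 3, had overlapping groups (log2 fold changes 0.08 and -0.02, limma adjusted p = 0.685 and 0.900).

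**Figure D3:**
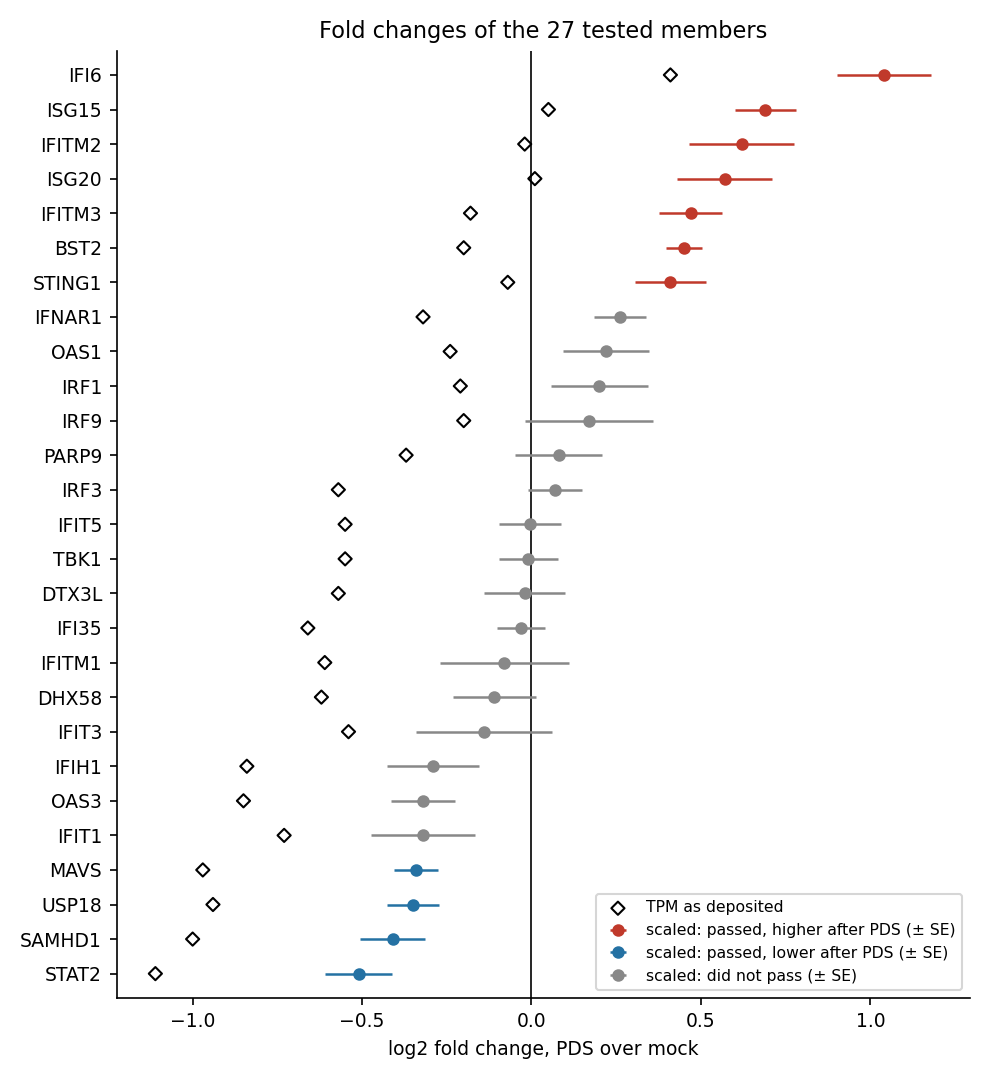
Log2 fold changes (PDS over mock) of the 27 tested genes, as filled points with SE on TPM scaled to the median gene and as open diamonds on TPM as deposited. Diamonds lie left of the points throughout, IFI6 has the highest value on both scales (1.04 and 0.41) and STAT2 the lowest (-0.51 and -1.11).

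BST2 and the interferon-induced membrane proteins IFITM3 and IFITM2 were the most abundant of the tested genes. IFITM3 (chromosome 11, 319676 to 329475), which blocks virus entry in endosomes, held 251 and 277 scaled TPM after PDS, against 205 and 177 in mock cells (log2 fold change 0.47 ± 0.0936, SE, limma adjusted p = 0.0241). IFITM2 (chromosome 11, 303655 to 309397) held 184 and 218 scaled TPM after PDS, against 149 and 113 in mock cells (log2 fold change 0.62 ± 0.154, SE, limma adjusted p = 0.0389). BST2 (chromosome 19, 17402939 to 17405630), or tetherin, which holds budding virus at the cell surface, held 265 and 272 scaled TPM after PDS, against 201 and 192 in mock cells (log2 fold change 0.45 ± 0.0535, SE, limma adjusted p = 0.00862). All 3 rose and none had overlapping groups on this scale. By TPM as deposited the 3 did not rise: BST2 was lower, at 214 and 216 after PDS against 248 and 244 in mock cells (log2 fold change -0.20, limma adjusted p = 0.0169), and IFITM3 and IFITM2 had log2 fold changes of -0.18 and -0.02. IFITM2 and IFITM3 are highly similar copies, so how their reads were divided is uncertain. IFITM1, the family member found at the cell surface, held 3.73 and 5.88 scaled TPM after PDS and 5.08 and 4.94 in mock cells (log2 fold change -0.08, limma adjusted p = 0.787).

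IFI6, a small protein of mitochondria and the endoplasmic reticulum, rose most and was the 1 gene that rose on both scales. IFI6 (chromosome 1, 27666064 to 27672212) held 46.8 and 35.1 scaled TPM after PDS, against 19.2 and 19.3 in mock cells (log2 fold change 1.04 ± 0.139, SE, limma adjusted p = 0.0105), and 37.8 and 27.8 against 23.7 and 24.5 TPM as deposited (log2 fold change 0.41, limma adjusted p = 0.0413). It rested on 219 and 201 reads after PDS and 265 and 210 in mock cells, and its PDS libraries lay further apart than its mock libraries. Of its exon bases, 23.1% are shared with LINC02574 on the same strand. ISG20 (chromosome 15, 88635670 to 88656483), an RNA exonuclease, held 8.14 and 8.55 scaled TPM after PDS, against 6.17 and 4.53 in mock cells (log2 fold change 0.57 ± 0.140, SE, limma adjusted p = 0.0384). By TPM as deposited ISG20 had a log2 fold change of 0.01 (limma adjusted p = 0.961). IFI35, a partner of NMI, held 35.2 and 32.6 scaled TPM after PDS and 33.4 and 36.0 in mock cells, with overlapping groups (log2 fold change -0.03, limma adjusted p = 0.750).

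The IFIT and OAS genes, whose proteins bind foreign RNA or make the activator of RNase L, gave no calls on scaled TPM. Of the tested genes, 0 of 3 IFIT genes and 0 of 2 OAS genes passed. All of them had a mean between 1 and 10 TPM, a level at which 17.0% of all genes tested passed. IFIT1 held 1.39 and 1.66 scaled TPM after PDS and 1.94 and 2.36 in mock cells, with no overlap (log2 fold change -0.32 ± 0.154, SE, limma adjusted p = 0.182). IFIT3 held 1.86 and 1.19 scaled TPM after PDS and 1.54 and 2.0 in mock cells, and IFIT5 held 5.13 and 5.46 after PDS and 5.04 and 5.60 in mock cells. Both had overlapping groups and log2 fold changes of -0.14 and -0.0044. OAS3 held 3.95 and 3.69 scaled TPM after PDS, against 4.80 and 5.28 in mock cells (log2 fold change -0.32 ± 0.0957, SE, limma adjusted p = 0.0604). OAS1 held 3.01 and 2.66 scaled TPM after PDS, against 2.12 and 2.45 in mock cells (log2 fold change 0.22 ± 0.128, SE, limma adjusted p = 0.240). OAS1 and OAS3 thus lay on opposite sides of their mock libraries.

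The 15 genes under the filter were read from few fragments. MX1, a GTPase that traps viral nucleocapsids and the deepest of these genes, had 63 and 57 reads after PDS and 171 and 156 in mock cells, a ratio of 0.872 per scaled depth with a counting interval of 0.701 to 1.08. IFIT2 had 2 and 1 reads after PDS and 15 and 8 in mock cells, a ratio of 0.310 (0.0596 to 1.03). IFI27, a mitochondrial protein often used as a marker of interferon in blood, had 16 and 10 reads after PDS and 17 and 7 in mock cells, a ratio of 2.57 (1.42 to 4.68). The chemokine CCL5 had 6 and 5 reads after PDS and 2 and 5 in mock cells, a ratio of 3.73 (1.32 to 11.4), and CXCL10 had 0 and 2 reads after PDS and 0 and 0 in mock cells. These intervals cover counting error only and not the spread between libraries.

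IFI44, IFI44L, OAS2 and OASL had 6 to 23 reads in all after PDS and 5 to 32 in mock cells, with ratios of 1.70 to 2.85 and intervals that all included 1. Ratios above 1 were common at this depth. Of the 12 genes here with at least 10 reads, the median ratio was 1.70 and 2 (CCL5 and IFI27) had an interval above 1 and 0 below it. Among 9630 genes under 1 TPM with 10 to 447 reads, the median ratio was 1.5, and of all 9674 such genes with at least 10 reads 18.5% had an interval above 1 and 2.05% below it. A share of 2 in 12 is close to that background and is not a result about these genes.

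**Figure D4:**
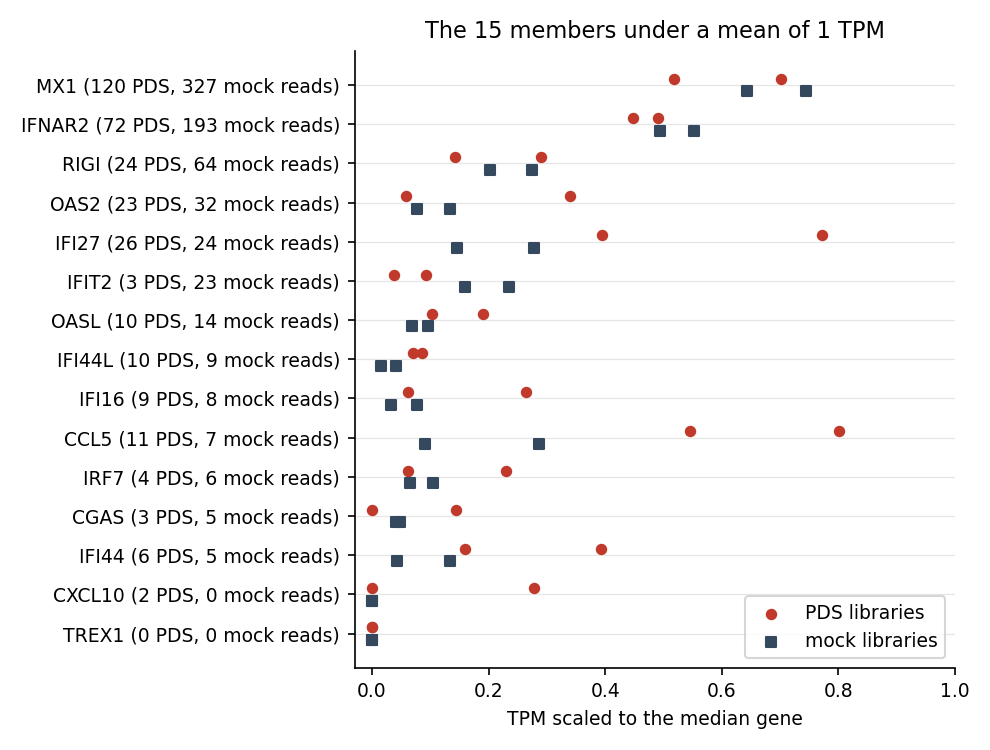
TPM scaled to the median gene of the 15 genes under a mean of 1 TPM in each PDS library (circles) and each mock library (squares), with the summed reads of each group beside the name. CCL5, IFI27, IFI44, IFI44L and OASL have both PDS libraries above both mock libraries, on 11, 26, 6, 10 and 10 PDS reads. IFIT2 and IFNAR2 have both below, and TREX1 lies at 0 in all 4 libraries.

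Fold change went with exon length, among these genes as in the whole table. Spearman's rho between log2 fold change and summed exon length was -0.37 over the 27 tested genes and -0.34 over 13972 tested genes, both across genes of the same 4 libraries. The 7 genes that rose had a median exon length of 1606 bases, the 4 that fell 10072 and the 16 that did not pass 5496. In 10 bins of all genes by length, the shortest genes (16 to 561 bases) had a median log2 fold change of 0.24 and the longest (10436 to 122609 bases) one of -0.18. With this trend removed, an alternative chosen after seeing the data, 9 of the 27 genes passed, 7 higher and 2 lower. SAMHD1 (-0.29), MAVS (-0.20) and IFITM2 (0.45) then no longer passed, and IFNAR1 (0.43) did as higher. The other 8 calls held, BST2 at 0.24 (limma adjusted p = 0.0470), ISG15 at 0.47, IFI6 at 0.82, IFITM3 at 0.37, ISG20 at 0.64, STING1 at 0.41, STAT2 at -0.40 and USP18 at -0.38.

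**Figure D5:**
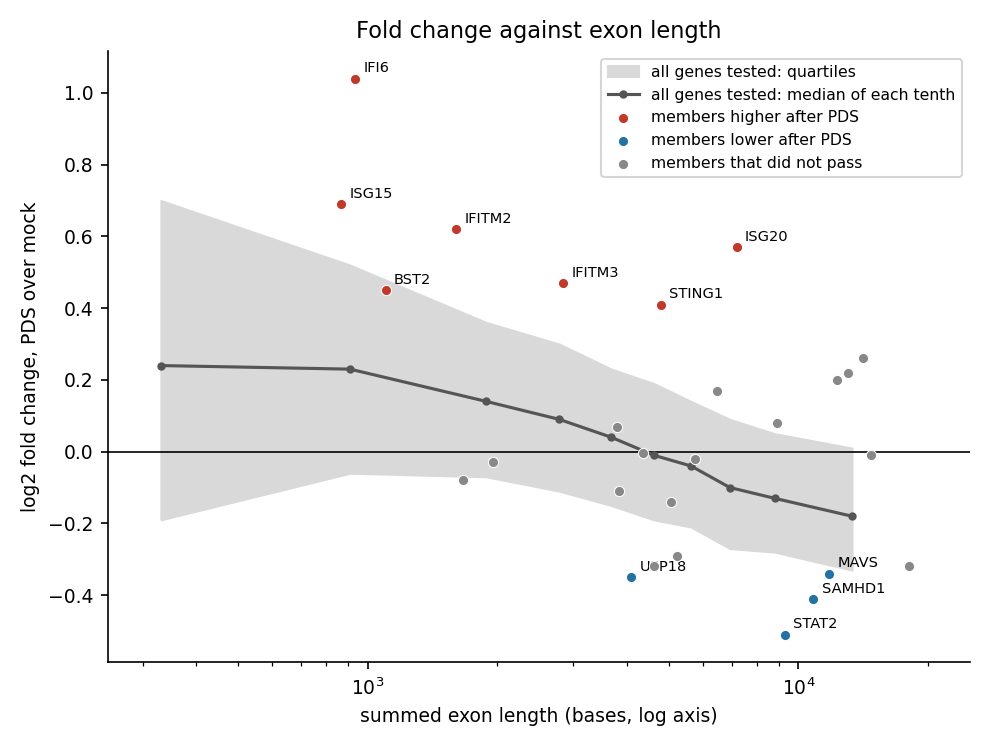
Log2 fold change (PDS over mock) against summed exon length (log axis) for the 27 tested genes, over the median (line) and quartiles (band) of all tested genes in 10 bins by length. The line falls to -0.18 in the longest bin. ISG20 and STING1 are among the genes above the band, at exon lengths of 7184 and 4798 bases. STAT2, SAMHD1, USP18 and MAVS are among those below it.

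Calls were more frequent among the more abundant genes. At a mean of 10 TPM or more, a limit chosen after the values were seen, 9 of 11 genes here passed (81.8%), 5 higher and 4 lower, against 41.2% of all genes tested at that level. Between 1 and 10 TPM, 2 of 16 passed (12.5%), both higher, against 17.0% of all genes. The median log2 fold change was 0.07 in the higher group and -0.01 in the lower one.

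Other genes of the pathway also held a higher and a lower set. Of 76 further genes of interferon signalling, 53 were tested, 15 rose, 7 fell and 31 did not pass, with a median log2 fold change of 0.10. These were 28.3% higher and 13.2% lower, beside 16.2% and 13.0% of all genes, and by TPM as deposited 1 was higher and 40 lower. Without mock 1 or mock 2, where 178 and 0 genes of the whole table passed, none of the 53 did (21 and 22 at an unadjusted limma p under 0.05), and 14 and 12 passed without PDS 1 or PDS 2. The log2 fold change of HLA-B was 0.61 and 0.63 without mock 1 or mock 2, and that of TRIM14 -0.83 and -0.54.

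The ligand IFNB1, a type I interferon, was under the filter and had 1 and 0 reads after PDS and 0 and 0 in mock cells. The kinases JAK1 and TYK2, which sit on the receptor chains, had log2 fold changes of -0.14 and -0.16 (limma adjusted p = 0.142 and 0.0956). JAK1 held 14.8 and 15.2 scaled TPM after PDS, against 17.0 and 16.4 in mock cells, so its groups did not overlap.

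The 5 that rose most at a mean of at least 5 TPM were SOCS3, HLA-B, TRIM21, DDX41 and HLA-C. SOCS3, an inhibitor of cytokine receptors, held 8.64 and 10.5 scaled TPM after PDS, against 4.61 and 2.54 in mock cells (log2 fold change 1.24 ± 0.237, SE, limma adjusted p = 0.0214), and was the 1 gene of this list that was higher by TPM as deposited (log2 fold change 0.70). HLA-B, a heavy chain of MHC class I, held 54.3 and 51.0 scaled TPM after PDS, against 33.5 and 33.9 in mock cells (log2 fold change 0.63 ± 0.0584, SE, limma adjusted p = 0.00657). HLA-C, DDX41, a helicase with a described role in DNA sensing, and TRIM21, an antibody receptor of the cytosol, rose by log2 fold changes of 0.51, 0.62 and 0.63. By TPM as deposited HLA-B, HLA-C and DDX41 had log2 fold changes of -0.0046, -0.14 and -0.02. HLA genes are close copies of one another, and how reads were divided between them is uncertain.

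The 5 that fell most were TRIM14, TRIM25, TRIM26, MX2 and ENPP1. TRIM14, an adaptor of the MAVS route, held 14.3 and 12.9 scaled TPM after PDS, against 20.1 and 24.9 in mock cells (log2 fold change -0.68 ± 0.119, SE, limma adjusted p = 0.0176). TRIM25, a ubiquitin ligase acting on RIGI, TRIM26, MX2, a relative of MX1, and ENPP1, which hydrolyses the cyclic dinucleotide of CGAS, had log2 fold changes of -0.42, -0.41, -0.40 and -0.32 (limma adjusted p = 0.0201, 0.0120, 0.0256 and 0.0418). Over the 53 tested genes of this list Spearman's rho between log2 fold change and exon length was -0.63. With the exon length trend removed 15 were higher and 2 lower, in place of 15 and 7, and TRIM25 (-0.27), MX2 (-0.22) and ENPP1 (-0.18) no longer passed (limma adjusted p = 0.0590, 0.106 and 0.155).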

How the data were processed

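Poly(A)-enriched RNA of HepG2 cells was sequenced in 2 PDS and 2 mock libraries. According to the submitters' notes the authors aligned reads to GRCh38 with STAR (2.7.0), counted them with featureCounts (2.0.3) and tested them with DESeq2 (1.36.0). The deposited values are TPM, a length-corrected expression signal. How TPM was calculated, on which annotation release and with which strand setting, was not given in the sources used here. Group means made by the authors were not used, and 2 rows of column totals were left out.

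Symbols and exon lengths came from GENCODE release 44. TPM multiplied by exon length came out as multiples of a single unit in each library (at least 99.89% of values up to 1000 reads within 0.05 of a whole number), and this gave the reads. Of 61906 identifiers 96.9% matched with their version. CCL5 and IFNAR1 matched without it, and their exon lengths were solved from the table.

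Median-of-ratios factors (PDS 0.806 and 0.793, mock 1.23 and 1.27) scaled the TPM of each library. Genes reaching a mean of 1 TPM entered a limma fit (version 3.58.1 under R 4.3.3) of log2(scaled TPM + 1), with a variance trend, two-sided, and Benjamini-Hochberg adjustment over all 14686 genes. For low genes the pseudocount of 1 makes changes look smaller. The fit was tested on simulated counts with known changes in both directions. That simulation held neither the mitochondrial shift nor the exon length trend, so it does not bear on how these act on the calls. Genes under 1 TPM are given as ratios of summed reads per scaled depth with an exact (Clopper-Pearson) 95% interval. Alternatives were 11 planned settings and 1 added later. Every gene is accounted for, and those past the threshold with groups that do not overlap and a mean of at least 5 TPM, and 8 genes of the sensing and receptor route, are given in full, with 5 in each direction and 3 others of the further list. Some results that the rule names are not reported here. The genes and lists were chosen with earlier results of these data known.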

Additional observations from a re-analysis of the deposited data

How the results depend on the processing

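Over all genes 4283 passed, against 10917 by TPM as deposited, 1237 with no filter and 0 to 2117 with 1 library left out. Of the 27 interferon and sensing genes 11 passed (7 higher, 4 lower), 17 by TPM as deposited (1 higher, 16 lower), 3 with no filter (ISG15, IFI6 and BST2), and 0 to 4 with 1 library left out, where the lone library is assumed to vary like the other group. Their median log2 fold change was -0.55 by TPM as deposited, 0.07 with no filter and -0.05 to 0.11 with 1 library left out. Of the further pathway genes 22 passed, 41 by TPM as deposited, 12 with no filter and 0 to 14 with 1 library left out. Quantile normalization kept 9 of the 11 calls, losing IFITM2 and IFITM3, and added IFNAR1 as higher. A minimum of 5 TPM kept 10, since STING1 was then not tested, and also added IFNAR1 as higher. A pseudocount of 0.1 kept all 11 and added none. With voom weights on the recovered reads all 11 held, IFNAR1 and OAS1 were added as higher and OAS3 as lower.

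By TPM as deposited the log2 fold change turned negative for STING1 (-0.07), IRF3 (-0.57), IFITM2 (-0.02), IFITM3 (-0.18), BST2 (-0.20), IFNAR1 (-0.32), DDX41 (-0.02), HLA-B (-0.0046) and HLA-C (-0.14), and for OAS1 (-0.24), IRF1 (-0.21), IRF9 (-0.20) and PARP9 (-0.37), which passed on neither scale. The causes were not tested. Same-numbered libraries did not deviate together (correlation -0.027), so the numbers were not taken as pairs. With the replicate block 2817 genes passed in all and 3 of the 27 did (ISG15, IFI6 and BST2). Few reads limit the 15 genes under 1 TPM.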
